A study of Vitis vinifera with 6 samples.

Results

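The loci described here are 136 transcribed loci of grapevine (Vitis vinifera) that carry only an XLOC identifier and whose array signal parted leaves overexpressing the transcription factor gene NAC61 (OX.NAC61) from control leaves. They were chosen by measured values of the same contrast that is described below. A locus entered if no fewer than 3 of the 6 arrays showed its probe well above background, if all 3 OX.NAC61 arrays lay above, or all 3 lay below, all 3 control arrays, and if the group means differed by at least 1 on the log2 scale, that is, by at least 2-fold. Of 4392 XLOC loci on the array, 2263 passed the background criterion and 136 met the whole rule, 52 of them higher and 84 lower in OX.NAC61. Because the rule used this contrast, the differences of the members are given as a description and without a test.

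NAC proteins are plant-specific transcription factors, many of which act in senescence, in responses to water deficit and pathogens, and, in fleshy fruits, in ripening. An XLOC identifier is the kind of name that transcript assembly software gives to a transcribed region which it builds from RNA-seq reads, whereas the VIT identifiers on the same array stand for genes predicted on the grapevine reference genome. Such loci can be coding genes missed by prediction, fragments or untranslated parts of known genes, antisense transcripts or long non-coding RNAs. The tables used here give no sequence, position or function for any XLOC number, so each member is known only by its number and its signal, and neither its strand nor its overlap with a predicted gene was examined.

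The 6 arrays measured leaf RNA of in vitro micropropagated plantlets of cv. Thompson Seedless, aged 6 weeks per the labels, 7 days after vacuum infiltration with Agrobacterium tumefaciens strain C58C1. The OX.NAC61 bacteria carried 35S:NAC61 in the vector pK7WG2, in which the strong constitutive 35S promoter drives the gene, and the control bacteria carried the same vector with a non-coding sequence, so both groups had been exposed to bacteria and vector. Expression was transient, and such a leaf can hold transformed beside untransformed cells. Of 7 plants infiltrated with NAC61 and 5 with the control vector, 3 of each were hybridised, each plant as 1 replicate, and the OX.NAC61 plants were those with the highest NAC61 expression, so that group was not a random draw of infiltrated plants.

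Values are scaled log2 levels: the log2 processed signal (the spot's brightness after background subtraction) minus the 75th percentile of the array, so that 0 is the brightness of that percentile and each unit is a doubling. The unscaled 75th percentile ranged from 889 to 1615 on control arrays and from 1775 to 2577 on OX.NAC61 arrays. The number of XLOC probes well above background was 2237, 1955 and 1746 on control replicates 1 to 3, against 2523, 2539 and 2165 on OX.NAC61 replicates 1 to 3. All 10 leaf markers examined, nuclear genes of photosynthesis, were well above background on every array. All controls and OX.NAC61 replicate 1 were scanned on a first day and OX.NAC61 replicates 2 and 3 on a second day. NAC61 itself (VIT_08s0007g07640) had scaled log2 levels of -2.48, -2.21 and -2.44 in controls and -1.15, -0.66 and -0.48 in OX.NAC61. Its log2 fold change was 1.62 (SE 0.21, adjusted p = 0.0286, limma across all tested features), in the direction of the labels in each array. The OX.NAC61 plants had been chosen for high NAC61 expression, which favours this result, so the p-value is not an independent check.

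The 52 higher members made up 2.3% of the XLOC loci that passed the background criterion, and the 84 lower members made up 3.71%. Over all 27053 features that passed, the same rule was met by 3.29% in the higher and 2.59% in the lower direction, and over the VIT loci by 3.39% and 2.47%. The members were more often lower than higher, while the VIT loci that met the rule were more often higher (838) than lower (611), although by limma VIT loci too were more often lower (945) than higher (794). Within ranges of probe brightness, the share that met the rule in the lower direction was 3.4% of XLOC and 3.47% of VIT loci below a mean level of -6, 3.41% and 3.22% from -6 to -4, and 4.89% and 2.47% from -4 to -2. In the higher direction it was 3.55% and 8.24%, 1.37% and 3.77%, and 2.24% and 4.06%. The shares in the lower direction were thus close in the dimmer ranges, and no test of the difference between classes was made. Normexp background correction, with an offset of 50 added before scaling, was tried in place of the scanner's own subtraction. The rule was then met by 10 higher and 41 lower XLOC loci, and in the authors' own log2 table by 7 higher and 4 lower. The lower count rose to 166 once control replicate 1 was left out and to 248 once OX.NAC61 replicate 1 was. Of the 84 lower members, 80 still met the rule in both of these cases. The count was 98 without control replicate 2 and 102 without control replicate 3. It was 79 without OX.NAC61 replicate 2 and 72 without OX.NAC61 replicate 3. With an array fewer, the groups more easily fail to overlap, and the cause of the larger rises was not tested.

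Among the higher members, the median log2 difference was 1.49, with a range from 1.01 to 5.48. By measured means, 28 of the 52 differed by less than 3-fold, 10 by 3- to 4-fold and 14 by 4-fold or more. Spread over these classes are 14 members with no control array well above background, whose folds are only bounds, as given below. Among the lower members, the median was -1.24 and the range -4.32 to -1.004, with 67 below 3-fold, 11 between 3- and 4-fold and 6 at 4-fold or more. The -4.32, counted among the 6, was that of XLOC_011228 and came from a marked spot on control replicate 1. The replicates of higher members spread alike in both groups (median SD 0.52 in controls and 0.50 in OX.NAC61, n = 3 each), whereas those of lower members were closer together in controls (0.28) than in OX.NAC61 (0.53). VIT loci that met the rule were similar, with 0.46 and 0.51 in the higher and 0.25 and 0.56 in the lower direction. The distance between the nearest arrays of the groups had a median of 0.61 in higher and 0.43 in lower members, and it was under 0.1 for 4 higher and 10 lower members, whose groups barely parted. Leaving out any 1 array in turn kept the difference at 1 or more in 33 higher and 36 lower members.

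**Figure D1:**
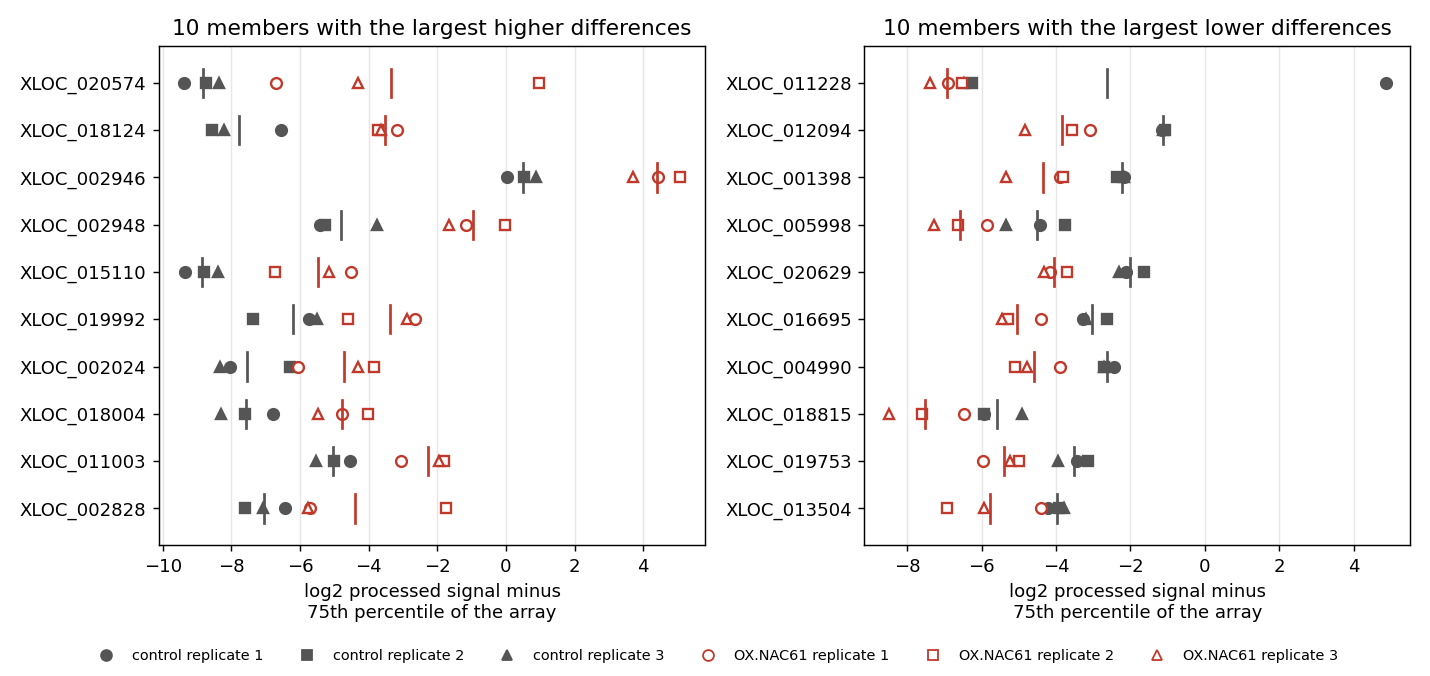
Scaled log2 level (log2 processed signal minus the 75th percentile of the array, x axis) of the 10 members with the largest differences in each direction, with 1 symbol for each array and a vertical tick at each group mean. Filled grey symbols are controls and open red symbols are OX.NAC61. XLOC_011228 owes its place to control replicate 1 at 4.86, with the other 5 arrays between -7.39 and -6.26.

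XLOC_002946 and XLOC_002948, whose numbers lie next but one to each other, were the members with the clearest higher signal. XLOC_002946 had scaled log2 levels of 0.03, 0.53 and 0.89 in controls and 4.42, 5.08 and 3.71 in OX.NAC61. The difference was 3.92, or 15.1-fold, and all 6 spots were well above background. The lowest OX.NAC61 array thus stood 2.83 log2 units above the highest control array, the widest gap between groups of any member, and no other member that was well above background on all 6 arrays had a larger difference.

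XLOC_002948 read -5.43, -5.28 and -3.74 in controls and -1.16, -0.03 and -1.66 in OX.NAC61. Its difference was 3.87, or 14.6-fold, also with all 6 spots well above background. Control replicate 3 was the highest control, and still 2.08 below the lowest OX.NAC61 array. XLOC_002947, the number between them, was well above background on all arrays and read -6.28, -5.37 and -5.08 in controls and -5.01, -5.26 and -6.23 in OX.NAC61. Its groups overlapped and differed by 0.08, so of these 3 consecutive numbers the first and the last were members and the middle one was not. In the authors' log2 table the difference was 3.94 for XLOC_002946 and 2.05 for XLOC_002948, and with normexp correction it was 3.95 and 2.75.

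The largest difference of all belonged to XLOC_020574 and rested mostly on 1 array. Its levels were -9.38, -8.73 and -8.36 in controls, none of them well above background, and -6.69, 0.97 and -4.30 in OX.NAC61. The SD over OX.NAC61 was 3.92, against 0.52 over controls, so the 3 OX.NAC61 plants were far apart and the controls were not. Against the lowest signal that counts as well above background on each control array, OX.NAC61 was at least 10.3-fold higher, and without OX.NAC61 replicate 2 this bound was at least 2.32-fold and the difference of 5.48 dropped to 3.33. For such a bound, each array of the dim group enters at that lowest signal, or at the probe's own value where this is higher, and the mean of the bright group is set against the mean of these.

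Another 4 of the 10 largest differences were shared more evenly among the OX.NAC61 plants. XLOC_018124 read -6.54, -8.57 and -8.20 in controls, with only replicate 1 well above background, and -3.16, -3.73 and -3.65 in OX.NAC61, a difference of 4.26 with an SD of 0.31 over OX.NAC61. XLOC_011003 read -4.55, -5.01 and -5.53 in controls and -3.07, -1.81 and -1.96 in OX.NAC61, a difference of 2.75, with every spot well above background. XLOC_018004 read -6.78, -7.61 and -8.30 against -4.79, -4.02 and -5.48, a difference of 2.80, with only 1 control array well above background. In these 3 loci the groups lay at least 1.302 apart. XLOC_019992 read -5.75, -7.38 and -5.51 against -2.65, -4.60 and -2.89, a difference of 2.83, and control replicate 2, the array with the lowest value, was the only one not well above background. With normexp correction and in the authors' table these differences were smaller: 1.06 and 0.67 for XLOC_018124, 1.40 and 0.98 for XLOC_011003, 0.39 and 0.36 for XLOC_018004, and 0.91 and 0.65 for XLOC_019992.

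XLOC_015110, XLOC_002024 and XLOC_002828 were dimmer or more scattered. XLOC_015110 was not well above background in any control (-9.36, -8.78 and -8.38) and read -4.52, -6.74 and -5.15 in OX.NAC61. Its measured difference was 3.37, and against the detection limit it was at least 2.37-fold higher, but with normexp correction the difference was 0.12. XLOC_002024 read -8.03, -6.28 and -8.32 in controls and -6.04, -3.84 and -4.31 in OX.NAC61, a difference of 2.81 in which control replicate 2 and OX.NAC61 replicate 1 came within 0.24 of each other. XLOC_002828 read -6.43, -7.60 and -7.08 against -5.70, -1.75 and -5.75, so that OX.NAC61 replicate 2 stood apart from the other replicates. Its difference of 2.63 was 1.31 without that array, the same array that carried XLOC_020574. With normexp correction and in the authors' table the difference was 0.41 and 0.38 for XLOC_002024 and 0.72 and 0.64 for XLOC_002828. In both of these loci only 1 control array was well above background.

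The other 42 higher members differed by 1.01 to 2.42, with a median of 1.40. Among them XLOC_004797 read -3.63, -4.52 and -3.97 in controls and -1.78, -2.41 and -1.85 in OX.NAC61 (difference 2.03). XLOC_006350 read -2.45, -2.65 and -3.23 against -1.47, -0.85 and -1.09 (1.64), and XLOC_007605 read -2.54, -2.22 and -2.92 against -0.92, -0.58 and -1.64 (1.51). In all 3 the SD in each group was 0.54 or less, below the difference of the means. The groups of XLOC_007605 were 0.58 apart at their nearest arrays. XLOC_009444 read -0.50, -0.17 and -0.74 against 0.17, 1.38 and 1.18 (1.38), and with XLOC_002946 it was one of only 2 higher members whose mean level over the arrays lay above 0. These 4 were picked for description after their values were seen, because they met the rule in every set of values tried.

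Detection set a limit on many of the higher members. Only 22 of the 52 (42.3%) were well above background on all 6 arrays, against 66.0% of the VIT loci that met the rule in the higher direction. In 14 members no control array was well above background, in 12 only 1 was and in 4 only 2 were. The 14 passed the background criterion through OX.NAC61 alone. Their fold changes are bounds. For 11 of them OX.NAC61 was at least 1.003- to 10.3-fold higher (median of the bounds 1.29), and for 3 the bound did not exceed 1, so no fold is given. Some bounds rested on single arrays: those of XLOC_019178, XLOC_015436 and XLOC_007547 fell below 1 when certain OX.NAC61 arrays were left out. The 22 members seen on all arrays had a median difference of 1.43 and a range from 1.01 to 3.92.

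The control arrays were also the dimmer arrays. The scaled log2 level of the lowest signal well above background was -7.30, -6.62 and -6.22 on control replicates 1 to 3 and -7.69, -7.96 and -7.47 on OX.NAC61 replicates 1 to 3, so a probe could be seen further down in OX.NAC61. Over all XLOC loci, 74 (1.68%) were well above background on every OX.NAC61 array and on no control array, and 0 showed the opposite. The same pattern was found in 0.953% of VIT loci (284) and 1.05% of all features (360), and the opposite in 3 features. Of these 74, 71 had a higher and 3 a lower scaled mean in OX.NAC61 (median difference 0.63), and 14 were the members just described. The part of array brightness in these detection counts was not tested.

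XLOC_011777 and XLOC_011778 were a pair of higher members with consecutive numbers, and both belonged to this dim class. XLOC_011777 read -8.74, -7.73 and -7.74 in controls and -6.53, -7.11 and -7.11 in OX.NAC61, a difference of 1.15. XLOC_011778 read -8.58, -8.91 and -8.50 against -7.57, -7.80 and -6.83, a difference of 1.26. No control spot of either was well above background, no fold could be bounded, and with normexp correction the differences turned to -0.52 and -0.53. Their neighbours by number did not meet the rule: XLOC_011776 differed by 0.25 and XLOC_011779 by -0.07, with overlapping groups in both.

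Direction in the higher members depended on the background correction. With normexp, 20 of the 52 turned to a lower mean in OX.NAC61, the median difference of the 52 was 0.17, and 12 kept a difference of 1 or more. With quantile normalisation or scaling to the array median, all 52 kept their direction and all 52 a difference of 1 or more. The 84 lower members kept their direction under all 3, with medians of -0.99, -1.19 and -1.22. For dim members the normexp offset itself favours a lower value in OX.NAC61, whatever their direction by the rule. Nothing is therefore read from the lower members keeping their direction with normexp. The part of the offset in the 20 changes of direction among higher members was not tested.

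The lower members had smaller differences and were better detected. Of the 84, 65 (77.4%) were well above background on all 6 arrays, against 88.5% of VIT loci that met the rule in the lower direction. None was dark on all OX.NAC61 arrays, 18 were well above background on only some of them, and 8 were so on only 2 controls. The 65 seen on all arrays had a median difference of -1.22 and a range from -2.71 to -1.004.

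XLOC_012094 had the largest lower difference among loci with no marked spot. It read -1.14, -1.08 and -1.13 in controls, with an SD of 0.03, and -3.08, -3.57 and -4.83 in OX.NAC61. The difference was -2.71, a 6.55-fold lower signal, and the highest OX.NAC61 array lay 1.94 below the lowest control, the widest gap among lower members. XLOC_001398 read -2.16, -2.35 and -2.17 in controls and -3.89, -3.81 and -5.36 in OX.NAC61 (difference -2.13). In both loci the controls were nearly level and OX.NAC61 replicate 3 was the lowest array.

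XLOC_020629 read -2.11, -1.62 and -2.32 in controls and -4.16, -3.69 and -4.31 in OX.NAC61 (difference -2.04), with similar spread in both groups. XLOC_016695 read -3.26, -2.63 and -3.18 against -4.39, -5.29 and -5.45 (-2.02). XLOC_004990 read -2.45, -2.70 and -2.70 against -3.89, -5.11 and -4.77 (-1.98). In these last 2, OX.NAC61 replicate 1 was the OX.NAC61 array nearest to the controls, at about a log2 unit above the other replicates. XLOC_019753 went the other way, with -3.45, -3.13 and -3.93 against -5.95, -4.99 and -5.23 (-1.89), and replicate 1 the lowest.

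The remaining 3 loci with no marked spot among the 10 largest lower differences had groups that lay closer together. XLOC_005998 read -4.43, -3.77 and -5.35 in controls and -5.84, -6.64 and -7.27 in OX.NAC61 (difference -2.07), with 0.50 between the nearest arrays. XLOC_018815 read -5.93, -5.94 and -4.90 against -6.47, -7.59 and -8.48 (-1.93), and 1 OX.NAC61 array was not well above background. XLOC_013504 read -4.21, -3.93 and -3.79 against -4.41, -6.92 and -5.95 (-1.78), so OX.NAC61 replicate 1 lay within 0.20 of a control. The other 74 lower members differed by -1.77 to -1.004, with a median of -1.20.

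XLOC_011228 gave the numerically largest lower difference, and it came from a single spot. It read 4.86, -6.26 and -6.46 in controls and -6.91, -6.51 and -7.39 in OX.NAC61. The spot on control replicate 1 was marked as an outlier by the scanner software, and its processed signal of 46950 was 8.04 times its own median pixel signal of 5836, whereas on the other arrays that ratio lay between 0.25 and 0.46. Without it, the difference was -0.58 with 2 controls left, below the size the rule asks for. This was the only member with a marked spot, and no XLOC probe was saturated.

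XLOC_020640 and XLOC_020641 were the only lower members with numbers within 2 of each other. XLOC_020640 read -5.53, -5.25 and -5.59 in controls and -6.67, -7.29 and -7.00 in OX.NAC61 (difference -1.53). XLOC_020641 read -4.73, -4.28 and -4.39 against -5.49, -5.84 and -5.86 (-1.27). All spots of both were well above background and the SD was 0.31 or less in each group. Whether consecutive XLOC numbers lie next to each other in the genome was not examined here.

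A few lower members had bright probes. XLOC_020504 read 4.03, 4.31 and 4.27 in controls and 3.48, 2.82 and 2.56 in OX.NAC61 (difference -1.25). XLOC_008646 read 2.52, 2.50 and 2.62 against 1.43, 0.75 and 0.76 (-1.56), and XLOC_016646 read 2.05, 2.18 and 1.43 against 0.67, -0.02 and 0.01 (-1.67). In all 3, OX.NAC61 replicate 1 was the OX.NAC61 array nearest to the controls. XLOC_020970 read 5.90, 6.24 and 6.23 against 5.47, 4.68 and 5.11 (-1.04). Its difference was -0.59 with quantile normalisation and -0.56 in the authors' table, below the size the rule asks for. These were the 4 lower members whose mean level lay above 0. Brightness differs between probes for reasons other than transcript abundance, so the levels do not rank the loci.

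At the edge of the rule, members and non-members were alike. XLOC_012012, the higher member nearest to the threshold, read -5.91, -6.18 and -6.18 in controls and -4.41, -5.65 and -5.19 in OX.NAC61 (difference 1.01, or 0.67 without OX.NAC61 replicate 1, and -0.07 with normexp correction). XLOC_006310, just outside, read -4.14, -4.03 and -4.27 against -3.72, -2.91 and -2.87 (0.98). On the lower side XLOC_004966 read -3.79, -3.18 and -3.25 against -3.83, -4.89 and -4.51 (-1.004), with 0.04 between the groups, and XLOC_021550, just outside, read -4.94, -5.10 and -5.26 against -6.12, -6.35 and -5.82 (-0.997), with 0.56 between them. The locus outside the rule thus had the better separated groups on the lower side.

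**Figure D2:**
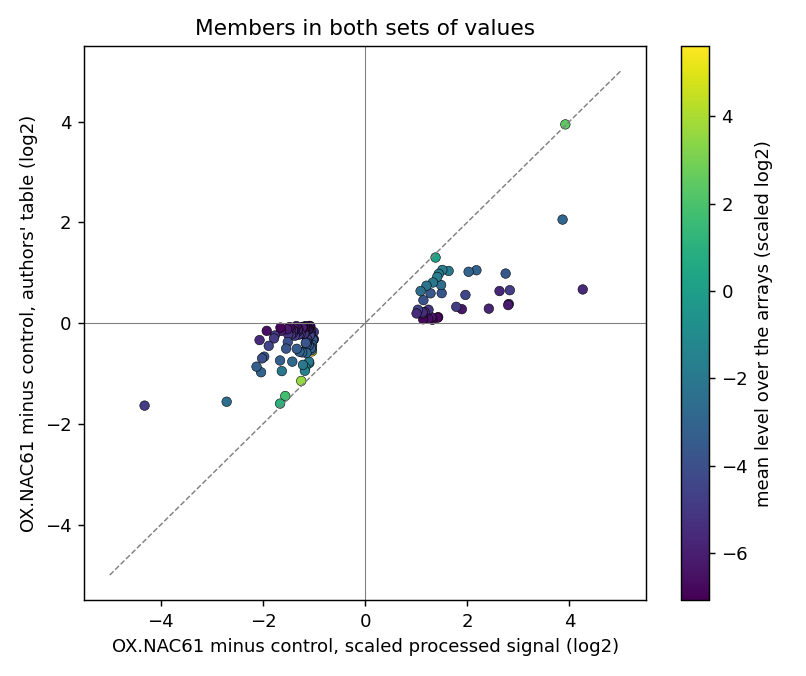
Difference between OX.NAC61 and control means (log2) of the 119 members held in both sets of values, from the scaled processed signal (x axis) and from the authors' log2 table (y axis), with 1 point for each locus. Colour gives the mean level over the arrays and the dashed line is equality. Every point keeps its sign, and dim loci lie close to 0 on the y axis. Among bright loci, XLOC_002946 lies near the line, whereas XLOC_020970 (-1.04 and -0.56) lies off it.

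The authors' log2 table held 119 of the 136 members, 38 higher and 81 lower. All 119 had the same sign in it, but the differences were smaller, with medians of 0.57 against 1.44 for the same 38 loci and -0.25 against -1.23 for the same 81. The shrinkage followed brightness: the difference in the table was 7.44% of that from processed signals for the 28 members with a mean level below -6 (median over loci), 17.5% for 42 members from -6 to -4, 46.1% for 35 from -4 to -2, and 73.9% for 14 at -2 or above. A difference of at least 1 was left in 7 higher and 5 lower members. In these medians the 2 sets of values thus differed most for dim loci and least for bright ones. Single loci could depart from this: XLOC_020970, the brightest member, went from -1.04 to -0.56 in the table.

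Counting both choices together, 10 members met the rule in all 5 sets of values (scaling to the 75th percentile or to the median, quantile normalisation, normexp correction, and the authors' table). The 6 higher ones were XLOC_002946, XLOC_002948, XLOC_004797, XLOC_006350, XLOC_007605 and XLOC_009444. The 4 lower ones were XLOC_020504, XLOC_008646, XLOC_016646 and XLOC_012094. All 10 were well above background on every array, and the list was drawn up after the values were seen.

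**Figure D3:**
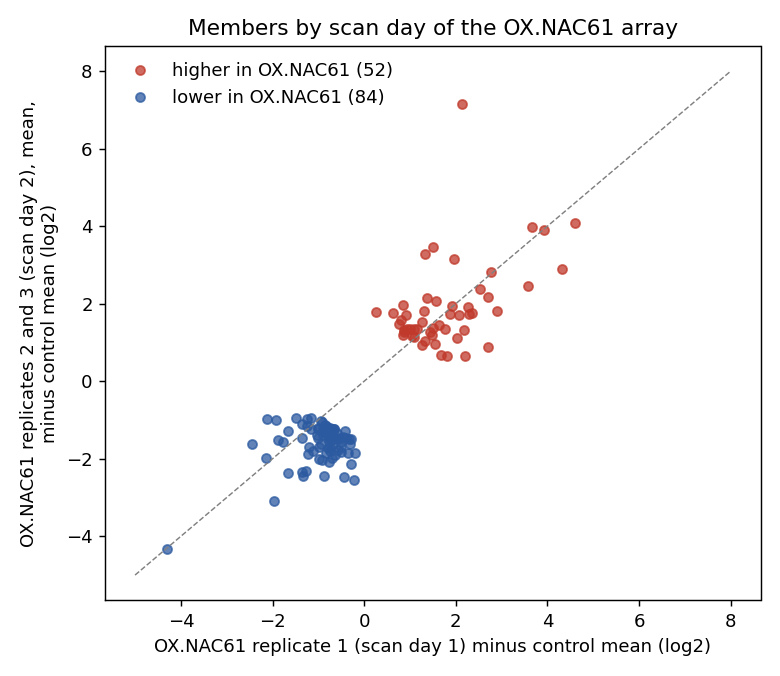
Difference from the control mean (log2) of OX.NAC61 replicate 1, scanned on the first day with the controls (x axis), and of the mean of OX.NAC61 replicates 2 and 3, scanned on the second day (y axis), for the 52 higher (red) and 84 lower (blue) members. The dashed line is equality. Lower members lie mostly below it, with medians of -0.83 on the first day and -1.47 on the second, and higher members lie around it (1.56 and 1.64).

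The difference of lower members was larger on the arrays of the second scan day, and that of higher members was of similar size on both days. In OX.NAC61 replicate 1, scanned with the controls, the median difference from the control mean was 1.56 over higher members and -0.83 over lower members. In the mean of OX.NAC61 replicates 2 and 3 it was 1.64 and -1.47. OX.NAC61 replicate 1 was the OX.NAC61 array nearest to the controls in 61 of 84 lower members (72.6%) and in 18 of 52 higher members (34.6%). For VIT loci that met the rule the shares were 75.3% and 34.4%. With 1 OX.NAC61 array on the first day, plant and scan day cannot be told apart, nor can fewer cells expressing a locus be told apart from less RNA per cell.

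The class of XLOC loci as a whole was then compared with the VIT loci, over all loci that passed the background criterion and not over members alone. By limma (adjusted p under 0.1 over all features and a fold above 1.5), 41 XLOC loci (1.81%) were higher and 68 (3.0%) lower in OX.NAC61, against 3.21% and 3.83% of VIT loci and 3.09% and 3.75% of all 27052 features tested. Among the members, which the same contrast had chosen, 28 of 52 and 40 of 84 were called, from which nothing is read. The XLOC counts moved with most arrays. They were 0 and 0 without control replicate 2 (113 and 182 at an unadjusted p under 0.05 by limma), 7 and 7 without control replicate 3, 28 and 36 without control replicate 1, 60 and 227 without OX.NAC61 replicate 1, 19 and 21 without OX.NAC61 replicate 2, and 7 and 7 without OX.NAC61 replicate 3. With normexp, whose offset draws dim loci toward a lower value in OX.NAC61, they were 18 and 771, against 824 and 4453 over all features. Counts over all 27052 features fell too, from 836 higher and 1015 lower to 64 and 7 without control replicate 2. The second scan day held no control, so with scan day as a block the contrast rested on OX.NAC61 replicate 1 against the controls. The median difference was then -0.05 over XLOC and -0.03 over VIT loci, against -0.23 and -0.04 without the block. No count of calls is given for that block.

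Across the 2263 XLOC loci, 70.3% had a lower mean in OX.NAC61 and the median difference was -0.23, whereas 55.2% of VIT loci did, with a median of -0.04. The XLOC probes were dimmer (median mean level -4.99, against -1.24), so the classes were also set side by side within ranges of brightness. The XLOC median was -0.20 below a level of -6, -0.27 from -6 to -4, -0.23 from -4 to -2, -0.19 from -2 to 0, and -0.17 from 0 upwards, and the VIT medians in the same ranges were -0.05, -0.16, -0.06, -0.01 and -0.02. The XLOC median was thus the lower one in each range, by less in the range from -6 to -4 than elsewhere. By plant it was -0.05 in OX.NAC61 replicate 1, -0.34 in replicate 2 and -0.25 in replicate 3, and it was -0.03 in the authors' table. No test of this difference between classes was made.

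**Figure D4:**
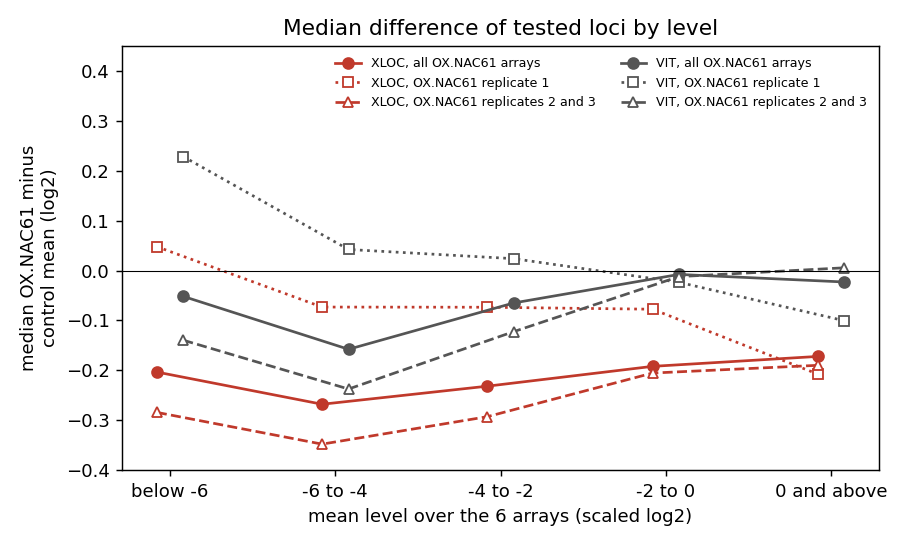
Median difference from the control mean (log2, y axis) of XLOC (red) and VIT (grey) loci in ranges of mean level over the 6 arrays (x axis, scaled log2). Filled circles are all OX.NAC61 arrays, open squares replicate 1 (first scan day) and open triangles replicates 2 and 3 (second scan day). The filled red points lie between -0.27 and -0.17 and the filled grey points between -0.16 and -0.01.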

How the data were processed

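The arrays were one-colour (Cy3) Agilent custom arrays. Per the file headers, the deposited intensity values are output of Feature Extraction 10.5.1.1. Each probe has 1 spot, given by its median pixel signal, the background around it and the processed signal left after background subtraction, and arrays were not set to a common scale. A log2 table was deposited too, made by the authors and holding 26157 probes, each well above background on at least 4 of 6 arrays. Its scale is log2 with column medians from 9.61 to 9.62, no centring of genes was seen, and its normalisation step is not given in the sources used here. It was used only as an alternative.

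Control spots were left out, and the log2 processed signal was scaled by each array's 75th percentile. Each locus had 1 probe. Members and lists were chosen with earlier results of these data known. Loci named are the 10 largest differences in each direction, members with numbers within 2 of each other, the loci nearest to the threshold, members with marked spots, and NAC61; others named were chosen after their values were seen. For the classes of loci limma 3.58.1 was run in R 4.3.3 (two-sided, no covariate), with marked spots set to missing, over features that 3 or more arrays showed well above background. The fit was tested on simulated data. Alternatives were normexp correction (offset 50) on the median signal, quantile normalisation, median scaling, the deposited table, other filters and thresholds, replicate number, scan day or recorded slide as a block, and each array left out. The number of arrays limits the precision.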

Additional observations from a re-analysis of the deposited data

Results flagged for a closer look

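Outside the 2263 XLOC loci that passed the background criterion, 144 stood well above background in 2 OX.NAC61 plants without doing so in any control, and 1 did so in 2 controls without any OX.NAC61 plant. These loci drew attention because they hold signal that no comparison above used and that reached the detection level in OX.NAC61 arrays only, which does not show that it was absent from controls. The 144 were 3.28% of the 4392 XLOC loci on the array, and the same pattern was found in 1.38% of VIT loci (412) and 1.64% of all features. The lowest level that counted as well above background was -7.30, -6.62 and -6.22 on control replicates 1 to 3 and -7.69, -7.96 and -7.47 on OX.NAC61 replicates 1 to 3, so an equal scaled level could be detected in OX.NAC61 alone. The OX.NAC61 arrays were the brighter ones before scaling (75th percentiles of 1775 to 2577 against 889 to 1615), and the part of brightness in this count was not tested.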

How the results depend on the processing

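The count of XLOC loci that met the rule (52 higher, 84 lower) was 10 and 41 with normexp correction and 7 and 4 in the authors' table, all but 3 of which were members. It was 22 higher when all 6 arrays had to be well above background, 520 lower with no filter on dim probes, and 96 and 223 at 1.5-fold. Leaving out each array gave 58 to 76 higher and 72 to 248 lower. The limma counts (41 higher, 68 lower) were 18 and 771 with normexp, 13 and 22 in the authors' table, and 26 higher with no filter. They were 22 and 19 when blocked by the slide recorded in the headers, and 16 and 25 at an adjusted p under 0.05. Over all features, the counts of 836 and 1015 moved too. They were 824 and 4453 with normexp, 530 and 627 in the authors' table, and 584 higher with no filter. With the slide block they were 443 and 156, and at the stricter adjusted p 381 and 275. No count is given for the scan-day block, in which the contrast rests on OX.NAC61 replicate 1 alone. Leaving out each array gave 0 to 60 higher and 0 to 227 lower XLOC loci by limma. Quantile normalisation, median scaling and the handling of marked spots moved all 4 XLOC counts by less than 1.5 times. The cause of these shifts was not tested. Filters and thresholds change the loci counted, and the normexp offset draws dim loci toward lower values in OX.NAC61. Leaving out an array makes it easier for the groups not to overlap.

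The recorded slide was 1 for control replicate 3 and OX.NAC61 replicates 1 and 3, 2 for replicate 2 of both groups and 3 for control replicate 1. The headers also give OX.NAC61 replicates 1 and 3 one and the same position on slide 1, which 2 arrays cannot share, so this block is only as good as that record.

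No label says that a replicate number pairs arrays across the groups, and correlations of same-numbered deviations were 0.20, -0.04 and 0.21. With the replicate number as a block, limma called 31 XLOC loci higher and 30 lower, against 635 and 385 over all 27052 features.

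Over 26 named members and 282 alternatives, 3 differences changed sign, all with normexp: XLOC_011777 (-0.52), XLOC_011778 (-0.53) and XLOC_012012 (-0.072). Another 48 moved by more than the replicate SD and 231 did not. That SD is the locus's own, and an outlying array widens it, so the 231 are not all stable. XLOC_011228, with an SD of 4.59, is among them although its difference went from -4.32 to -0.58 without control replicate 1. The median difference of XLOC loci, recomputed after the data were seen, lay between -0.55 (normexp) and -0.03 (authors' table).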
